A study of Rattus norvegicus with 9 samples.

Results

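The genes encoding the proteins of the cytosolic ribosome were followed across the prefrontal cortex of 9 rats. Members were all genes whose only symbol in the annotation of the array began with Rpl or Rps and a number, or was Rplp0, Rplp1, Rplp2 or Rpsa. Kinases named Rps6k and symbols with a suffix l or -ps were left out, and each gene was read from its probe set with the highest mean. The rule found 41 of 10411 genes with a probe set of a single symbol, 13 from the small and 28 from the large subunit. Rplp1, Rplp2 and Rps18 had no such probe set. Of the 41 members, 39 lay above the filter on low values, 12 from the small and 27 from the large subunit. Rpl30 and Rps4y2 did not, with means of 2.19 and 2.12 on the log2 scale.

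The rats were untreated male animals of the inbred Lewis strain, with 1 Affymetrix expression array each, and they formed a single group. The labels give each rat 4 behavioural values without a unit: sugar feeding, startle, locomotion and the plus maze. Frontal cortex was taken 12 days after the last of these tests. The questions here are how these genes differ among animals of 1 inbred strain and whether their levels follow the behavioural values.

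Cytosolic ribosomes make the proteins encoded by the nucleus, and each holds a small subunit that reads the message and a large subunit that joins amino acids. Their proteins are made in matched amounts, and in vertebrates most of their messages begin with a C followed by a run of pyrimidines, the 5′ terminal oligopyrimidine motif, through which the mTORC1 pathway regulates their translation. In neurons, ribosomes occur in the cell body and in dendrites, and ribosomal protein messages are also found in neuronal processes.

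Sequence around the transcription start was available for 36 of the 41 members, from RefSeq on the build GRCr8. Rpl7, Rpl23a, Rpl27, Rpl30 and Rps29 were not matched. The 10 windows below belong to genes on which the results turn, and they show members with and without a pyrimidine run. Each holds the 15 bases before the annotated start and the first 15 bases of the transcript. Capitals mark a stretch of at least 5 pyrimidines that opens with a C within 10 bases of that start. Where the pyrimidines began farther upstream, as in Rpl13a and Rpl35, only the part inside this search range is marked. In Rplp0, Rpl19 and Rpl35 the start base was itself a C followed by pyrimidines. In Rpl12, Rpl13a, Rps24 and Rps15a a run lay near the start, and in Rpl11, Rpl24 and Rps16 there was none in this window.
Rplp0, chr12:46718376-46718405, minus strand: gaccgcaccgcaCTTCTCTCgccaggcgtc
Rpl19, chr10:83519049-83519078, plus strand: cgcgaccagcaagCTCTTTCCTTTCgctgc
Rpl35, chr3:43165907-43165936, minus strand: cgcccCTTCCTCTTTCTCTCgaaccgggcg
Rpl12, chr3:36661925-36661954, plus strand: ggagcaacatccgtCTTTTCggctttcggt
Rpl13a, chr1:104748899-104748928, minus strand: cctcttCCTTTCCTaggcggctgccgaaga
Rps24, chr16:96502-96531, plus strand: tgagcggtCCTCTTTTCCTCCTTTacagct
Rps15a, chr1:181860270-181860299, minus strand: cggcgttttCTTTCCacagtcaccatggtg
Rpl11, chr5:153560788-153560817, minus strand: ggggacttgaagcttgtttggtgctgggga
Rpl24, chr11:58128391-58128420, minus strand: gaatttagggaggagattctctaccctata
Rps16, chr1:92770643-92770672, plus strand: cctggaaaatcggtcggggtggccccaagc

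A pyrimidine run near the start was present in 25 of the 36 matched members, or 69.4%, against 27.2% of 19005 protein-coding promoters. The start base was itself a C that opened 5 or more pyrimidines in 11 members, or 30.6%, against 2.44% of all promoters. Mitochondrial ribosomal protein genes, whose products work in a separate ribosome, had a run near the start in 36.8% and such a C at the start in 3.51% of 57 promoters. In the 250 bases before the start, on both strands, the letters CCGGAAG were found in 13.9% of members and 9.52% of all promoters. ATTGG was found in 22.2% of members and 35.5% of all promoters, and TATAAA in 13.9% of members and 12.3% of all promoters. These are matches of letters to annotated starts, and they say nothing of binding.

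Expression is given on a log2 scale for each probe set. Of 15866 probe sets other than controls, the 40% with the lowest means were left out and 9520 were tested. Array medians lay between 4.11 and 4.28. Identical values on at least 2 arrays were found for 14 of the 39 members and for 47.0% of all probe sets tested. The excitatory cortical markers Slc17a7, Camk2a, Nrgn and Cux2 passed the filter, while Tbr1 and Rorb did not. Of the striatal markers, Ppp1r1b and Penk passed while Drd1, Drd2 and Adora2a did not. Of the choroid plexus markers, Folr1 passed while Ttr, Kl and Aqp1 did not. Rats 8 and 9 were taken as a pair from earlier results of these data. In 26.3% of 6793 genes both of them lay outside the values of the other 7 rats, and other pairs of rats were not compared. The main results are therefore also given for the other 7 rats.

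Most ribosomal protein genes lay high in the same rats and low in the same rats, within a narrow range. Their median deviation from each gene's own mean was highest in rat 3, at 0.13 log2 units, and lowest in rat 4, at -0.12. It was 0.076 in rat 2, 0.069 in rat 8 and 0.056 in rat 6. It was -0.032 in rat 7, -0.035 in rat 1, -0.041 in rat 9 and -0.058 in rat 5. Rats 2, 3, 6 and 8 thus lay above the members' mean and the other 5 rats below it. In rat 4, 37 of the 39 members lay below their own mean, whereas 57.7% of all probe sets tested lay above theirs. The lowest value of 16 members was found there, or 41.0% against 5.13% of all probe sets tested. In rat 3, 31 of the 39 members lay above their mean, against 56.4% of all probe sets. The highest value of 18 members was found there, or 46.2% against 19.9% of all probe sets. The median of the 796 other probe sets with a mean of at least 10, a level that 35 members reached, stayed between -0.041 and 0.036 and had an r of -0.343 with the members' median over the 9 rats and -0.440 over the 7. In whole tissue, fewer cells of a type and less RNA per cell cannot be told apart. The values share their normalization between arrays, so these deviations are relative to the other probe sets on the array.

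**Figure D1:**
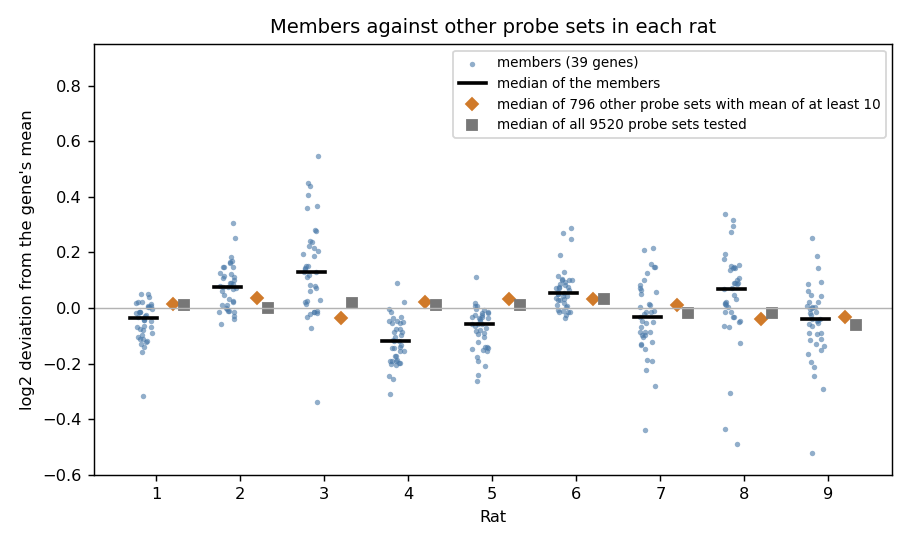
Log2 deviation of each of 39 ribosomal protein genes from its own mean (blue points, y axis) in each of 9 rats (x axis), with the members' median (black bar), the median of 796 other probe sets with a mean of at least 10 (diamond) and the median of all 9520 probe sets (square). The members' median ran between -0.12 in rat 4 and 0.13 in rat 3, and the medians of the other probe sets stayed between -0.061 and 0.036.

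The shared variation was also seen pair by pair. Over the 741 pairs of members the median Pearson r across 9 rats was 0.421, and 80.7% of pairs were positive. Over all pairs of the 6793 genes tested the median was 0.0698, with 56.2% of pairs positive, and over the other probe sets with a mean of at least 10 it was 0.0525. In the 7 rats other than 8 and 9 the members' median was 0.578, against 0.0231 over all genes. Pairs within the small subunit had a median r of 0.547, and of 0.670 in the 7 rats. Pairs within the large subunit had 0.354, and 0.510 in the 7 rats. These values describe shared variation among a few animals on arrays normalized together, and pairs that share a gene are not independent. Leaving out each rat in turn kept the median between 0.358 and 0.487.

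Rpl41, a very short basic protein at the interface of the subunits, followed the rest most closely, with an r of 0.952 between its values and the median of the other members. Rpl7, of the large subunit, had 0.931, and Rpl27a, also of the large subunit, had 0.900. Positive values were found for 37 of the 39 members, and the same share over all genes tested was not computed. Some of the positive values were low over the 9 rats, such as 0.109 for Rpl27, 0.110 for Rpl19, 0.132 for Rps29 and 0.211 for Rpl13a. Negative values were those of Rpl6, with -0.050, and Rpl11, with -0.278. In the 7 rats the r was 0.949 for Rpl41, 0.953 for Rpl7, 0.914 for Rpl27a, -0.060 for Rpl6 and -0.311 for Rpl11. Rpl11 binds the 5S ribosomal RNA together with Rpl5, and both can bind the p53 regulator Mdm2. Rpl11 had its lowest value, 10.45, in rat 3, where most other members were high, a median of 10.84 and its highest value, 10.94, in rat 7. Its partner Rpl5 had an r of 0.167 with the other members over 9 rats and 0.592 over the 7 rats.

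**Figure D2:**
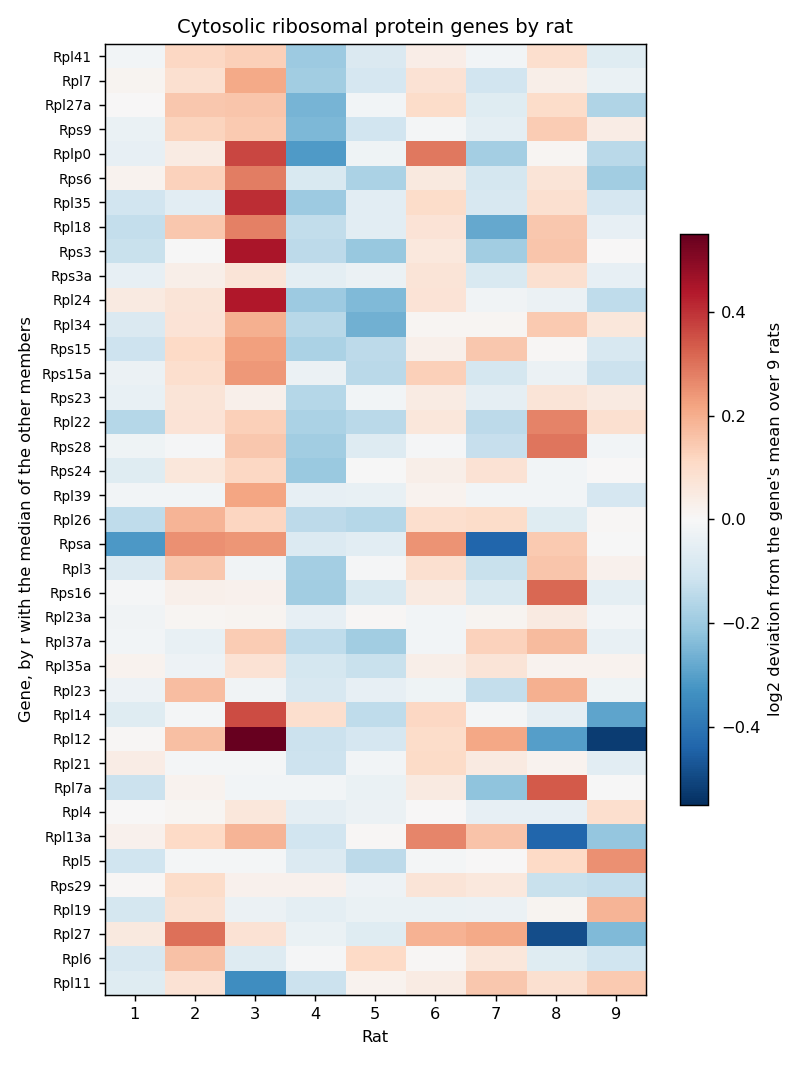
Log2 deviation of each ribosomal protein gene (rows) from its mean over the 9 rats (columns), with red above and blue below the mean. Genes run from the highest r with the median of the other members, Rpl41 at 0.952, to the lowest, Rpl11 at -0.278. The column of rat 4 is blue in 37 of 39 rows, whereas 57.7% of all probe sets tested lay above their mean in that rat.

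Among pairs, the highest r were 0.950 for Rpl27 and Rps29, 0.935 for Rpl27a and Rpl41, and 0.927 for Rpl3 and Rps23. Rpl3 lies close to the peptidyl transferase centre and Rps23 at the decoding centre, and their r was 0.933 without rats 8 and 9. The pair of Rpl27 and Rps29 kept an r of 0.940 without these rats. Rpl13a and Rpl27 had 0.924 over 9 rats and 0.678 over 7. The lowest r was -0.788, for Rpl11 and Rpl39, a small protein of the exit tunnel. Rpl39 had a mean of only 4.77, near the array medians of 4.11 to 4.28, so its signal was weak. Rpl27 and Rpl7a had -0.669 over 9 rats and 0.0137 without rats 8 and 9. These pairs were picked as the extremes of 741 and were not tested. The 24 tested members with a pyrimidine run near the start had a median r of 0.722 with the other members, and the 11 without a run had 0.662, with single values between -0.278 and 0.952.

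The spread of single members between animals was mostly small. Their median SD across the 9 rats was 0.13 log2 units, against 0.19 over all probe sets tested, 0.15 over the other probe sets with a mean of at least 10 and 0.18 over 70 mitochondrial ribosomal protein genes. Without rats 8 and 9 the members' median SD was also 0.13. From the lowest to the highest rat, the median member spanned 1.32-fold and the median probe set 1.52-fold. The smallest SD was that of Rpl23a, a docking site for factors at the exit of the peptide tunnel, at 0.027, with 11.60 in the lowest and 11.69 in the highest rat. Rpl4, which lines the exit tunnel, followed with 0.051, Rpl21 with 0.063, Rps3a with 0.065 and Rpl35a with 0.069.

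The largest SD was that of Rpl12, which sits at the base of the ribosomal stalk, at 0.31. Its values were 9.64 in the lowest rat, a median of 10.16 and 10.70 in the highest, a span of 2.09-fold. Rpsa, the small-subunit protein also known as a laminin receptor precursor, had an SD of 0.25, with 9.88 in rat 7, a median of 10.31 and 10.57 in rat 2. The remaining members among the 5 most variable were Rpl27 with 0.25, Rpl13a with 0.22 and Rplp0 with 0.22. Rplp0 forms the stalk on which elongation factors are recruited, and its values lay between 10.50 in rat 4 and 11.18 in rat 3. Rplp0, Rpl13a and Rpl19 are common reference genes in quantitative PCR. Their spans here were 1.60-fold for Rplp0, 1.63-fold for Rpl13a and 1.22-fold for Rpl19. The SD of Rplp0 exceeded that of 59.3% of all probe sets tested and that of Rpl13a 60.6%, whereas that of Rpl19 exceeded 11.9%. Among the other probe sets with a mean of at least 10, these shares were 77.8%, 78.6% and 12.3%.

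Several marker lists of other cells moved with the shared pattern and others did not, and their part in it was not tested. Over the 9 rats, the median deviation of the members had an r of 0.757 with that of endothelial markers, 0.683 with microglia, 0.672 with astrocytes and -0.716 with inhibitory neurons. In the 7 rats other than 8 and 9 these were 0.803, 0.725, 0.708 and -0.841. With excitatory neurons the r was -0.0732 over 9 rats and -0.231 over 7, and with oligodendrocytes it was 0.178 and 0.0125. With meninges and fibroblasts it was 0.550 and 0.462, and 5 of these 6 markers passed the filter, with a median deviation between -0.86 in rat 5 and 1.01 in rat 2. The lists for choroid plexus, striatum and olfactory bulb held 1 or 2 tested genes each, with an r between -0.130 and 0.237. Of the endothelial markers 5 of 7 passed the filter, with Pecam1 and Tek below it, and their median deviation lay between -0.16 in rat 9 and 0.36 in rat 3. Of the microglial markers 5 of 8 passed, with Cx3cr1, Cd68 and Itgam below the filter, and their median lay between -0.35 in rat 7 and 0.47 in rat 3. All 7 astrocyte markers passed, between -0.15 in rat 9 and 0.27 in rat 3. All 7 markers of inhibitory neurons passed, between -0.26 in rat 8 and 0.28 in rat 5. Of the red blood cell markers, Hbb and Alas2 passed, with a median between -0.45 in rat 5 and 1.01 in rat 8, and an r of 0.637 over 9 rats and 0.826 over 7. Rat 3 was thus the highest for endothelium, microglia, astrocytes and the ribosomal protein members. Rat 4, the lowest for the members, was lowest for none of these marker lists. The 27 tested probe sets with several ribosomal protein symbols, described further below, had a median deviation of only 0.0084 in rat 3.

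Rats 8 and 9 were set against the other 7 rats gene by gene. Both arrays lay beyond the range of the others for 5 of 39 members, or 12.8%, against 26.3% of all genes tested. In 1 member both were higher, against 6.58% of all genes, and in 4 members both were lower, against 19.7%. The median difference of rats 8 and 9 minus the other 7 was 0.020 log2 units for the members and -0.085 for all genes. The pair was known from earlier results of these data, so these counts are a description.

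Rpl12 had 9.85 and 9.64 in rats 8 and 9, and between 10.04 and 10.70 in the other 7 rats with a median of 10.26, a difference of -0.53. Rpl27 had 10.70 and 10.95 in rats 8 and 9, and between 11.13 and 11.50 in the other 7, a difference of -0.47. Rpl13a, which is also part of a complex that silences inflammatory messages in human monocytes, had 11.30 and 11.53 in rats 8 and 9, and between 11.64 and 12.01 in the other 7, a difference of -0.42. All of these lay below the whole range of the other 7 rats. Rps29, a small zinc-binding protein, had 12.94 in both rats 8 and 9, and between 13.04 and 13.17 in the other 7, a difference of -0.16. Rpl14 had a difference of -0.22 with overlap.

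On the other side, Rpl5 had 11.59 and 11.74 in rats 8 and 9, and between 11.34 and 11.49 in the other 7 rats, a difference of 0.23. It was the member for which both arrays lay above the others. Rpl22 differed by 0.23, Rpl7a by 0.22, Rps28 by 0.18 and Rps16 by 0.17, all with overlap. In each of these with overlap, only rat 8 lay above all of the other 7 rats. Rpl22 had 10.22 in rat 8 and 10.03 in rat 9, against a highest value of 10.07 in the other 7 rats. Rps28 had 10.70 in rat 8 and 10.39 in rat 9, against a highest value of 10.56. Rpl7a had 12.12 in rat 8 and 11.78 in rat 9, against a highest value of 11.83 in the other 7 rats. Rps16, whose tail reaches the tRNA in the decoding site, had 11.97 in rat 8 and 11.60 in rat 9, against a highest value of 11.70 in the other 7.

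**Figure D3:**
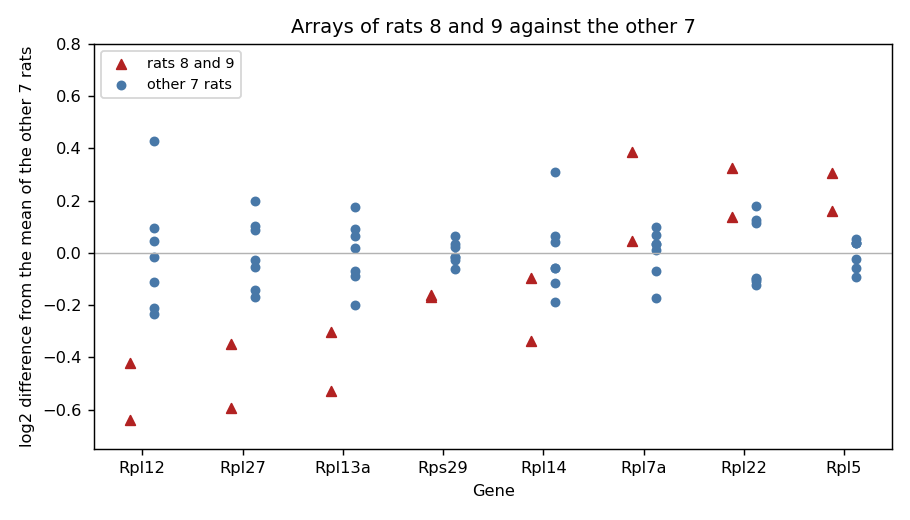
Log2 difference from the mean of the other 7 rats (y axis) for the 5 members with the most negative and the 3 with the most positive difference (x axis), with rats 8 and 9 as red triangles and the other 7 rats as blue points. The triangles of Rpl12, Rpl27, Rpl13a and Rps29 lie below all blue points of their gene, and those of Rpl5 lie above.

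No ribosomal protein gene changed with a behavioural value past the adjusted threshold. A slope per SD of each behaviour was fitted with limma over all 9520 probe sets. After Benjamini-Hochberg adjustment at 0.05 no member passed for any of the 4 behaviours, and 0.0% of all probe sets did. The counts at an unadjusted p under 0.05 are given for each behaviour.

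Startle lay between 67.7 in rat 8 and 501 in rat 3. For startle, 2 of 39 members had an unadjusted p under 0.05, against 13.2% of all probe sets, with 1 positive slope against 8.9% and 1 negative slope against 4.34%. The slopes were positive for 27 members and negative for 12, with a median of 0.027 log2 units per SD, against 0.021 over all probe sets. Positive slopes were 69.2% for the members, 61.5% for all probe sets and 53.4% for the other probe sets with a mean of at least 10. Without rat 3, the rat with the highest startle, no member had an unadjusted p under 0.05, against 9.35% of all probe sets. The median slope was then -0.011, with 16 positive and 23 negative slopes. Leaving out rat 1 gave a count of 7, against 10.8% of all probe sets. Leaving out rat 7 gave 4, against 13.2%, and leaving out rat 8 gave 7, against 13.4%. Without rats 8 and 9 it was 5, against 14.6%, and the median slope was 0.053, against 0.0068 over all probe sets.

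Rpl24, a protein that reaches across to the small subunit and joins late in assembly, had the smallest p among positive slopes for startle. Its values were 10.76 in rat 5, a median of 10.99 and 11.44 in rat 3. Rat 3 lay well above the other 8 rats, whose highest value was 11.08. The slope was 0.14 ± 0.053 (SE, n = 9; limma adjusted p = 0.359). Pearson r was 0.705 (exact permutation p = 0.0294) and Spearman rho was 0.683 (exact permutation p = 0.0503). Without rats 1 and 3, whose startle lay farthest from the median, r was 0.346 (exact permutation p = 0.456), and without rats 8 and 9 it was 0.792 (exact permutation p = 0.0298).

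Rpl11 had the smallest p among negative slopes, at -0.11 ± 0.044 (SE, n = 9; limma adjusted p = 0.362). Pearson r was -0.708 (exact permutation p = 0.0292) and Spearman rho was -0.700 (exact permutation p = 0.0433). Without rats 1 and 3 r was -0.251 (exact permutation p = 0.589), and without rats 8 and 9 it was -0.705 (exact permutation p = 0.0690). Leaving out single rats, both relations were weaker without rat 3, with slopes of 0.068 for Rpl24 and -0.053 for Rpl11. Without rat 1 the slopes were 0.17 and -0.13. The next positive slopes were 0.087 for Rps15a and 0.18 for Rpl12, and the next negative ones were -0.053 for Rpl7a and -0.037 for Rpl5. None of these 4 had an unadjusted p under 0.05.

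**Figure D4:**
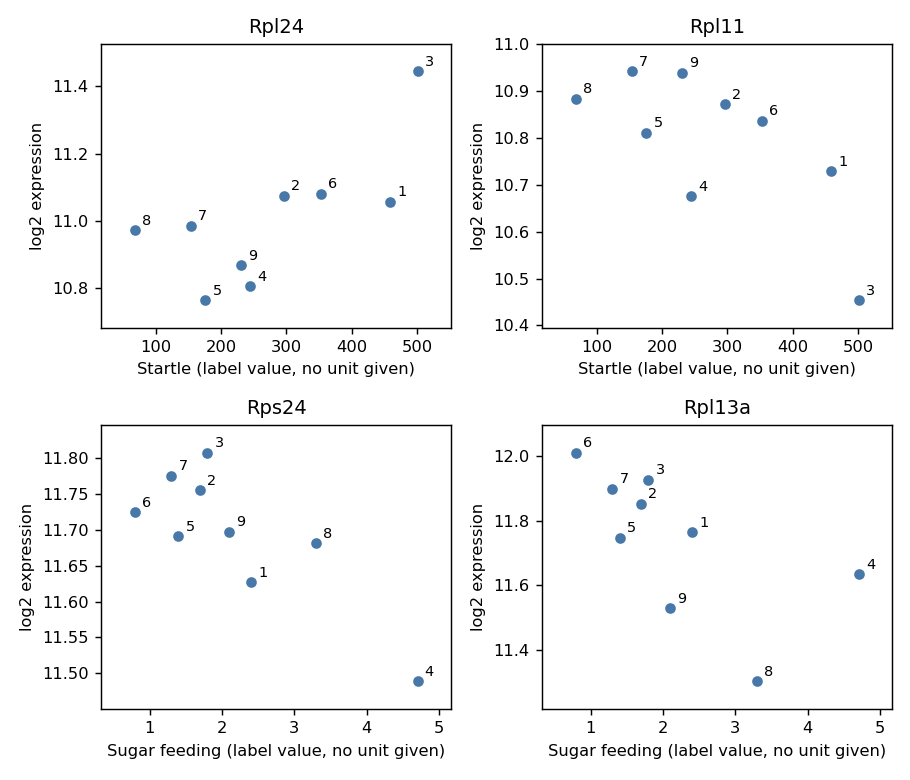
Log2 expression (y axes) against the behavioural value (x axes, no unit given) for the 4 members with an unadjusted limma p under 0.05, with each rat numbered. Rat 3 is the highest for Rpl24 and the lowest for Rpl11 at the highest startle, and rat 4 has the highest sugar feeding and the lowest Rps24.

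Locomotion lay between 536 in rat 3 and 1102 in rat 1. None of the 39 members had an unadjusted p under 0.05, against 1.96% of all probe sets, 0.62% with a positive and 1.34% with a negative slope. Slopes were positive for 6 members and negative for 33, with a median of -0.025 against -0.010 over all probe sets. Positive slopes were 15.4% for the members, 41.0% for all probe sets and 49.5% for the other high-level probe sets. Without rat 3, the rat with the lowest locomotion, the median was 0.00096, with 20 positive and 19 negative slopes. The count was 3 without rat 1, against 9.84% of all probe sets, and 1 without rat 7, against 2.56%. Without rats 8 and 9 it was 0, against 4.37%, and the median slope was -0.034. Rpl23 had the smallest p among positive slopes, 0.038 ± 0.043 (SE, n = 9; limma adjusted p = 1.00). Its values were 11.73 in the lowest rat, a median of 11.83 and 12.05 in the highest. Pearson r was 0.349 (exact permutation p = 0.358) and rho was 0.0502 (exact permutation p = 0.904). Without rats 1 and 3 r was 0.702 (exact permutation p = 0.0861), and without rats 8 and 9 it was 0.141 (exact permutation p = 0.738).

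Among negative slopes for locomotion Rpl13a came first, at -0.13 ± 0.065 (SE, n = 9; limma adjusted p = 1.00). Its values were 11.30 in rat 8, a median of 11.76 and 12.01 in rat 6. Pearson r was -0.581 (exact permutation p = 0.101) and rho was -0.767 (exact permutation p = 0.0214). Without rats 1 and 3 r was -0.904 (exact permutation p = 0.00774), and without rats 8 and 9 it was -0.565 (exact permutation p = 0.180). Without rat 1 the slope was -0.28. Other slopes were 0.037 for Rps16, 0.036 for Rpl7a, -0.17 for Rpl12 and -0.080 for Rps15.

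Plus maze values lay between 0 in rats 3 and 9 and 18.7 in rats 2 and 6. No member had an unadjusted p under 0.05, against 2.99% of all probe sets, 2.45% with a positive and 0.546% with a negative slope. Slopes were positive for 30 members and negative for 9, with a median of 0.028 against 0.011 over all probe sets. Positive slopes were 76.9% for the members, 58.2% for all probe sets and 70.4% for the other high-level probe sets, close to the members. Without rat 3 the count was 5, all positive, against 4.36% of all probe sets. Without rats 8 and 9 it was 0, against 3.58%, and the median slope was 0.029. Rpl27 came first among positive slopes, at 0.12 ± 0.075 (SE, n = 9; limma adjusted p = 0.999). Its values were 10.70 in rat 8, a median of 11.24 and 11.50 in rat 2. Pearson r was 0.494 (exact permutation p = 0.170) and rho was 0.336 (exact permutation p = 0.373). Without rats 2 and 6 r was -0.116 (exact permutation p = 0.802), and without rats 8 and 9 it was 0.657 (exact permutation p = 0.123). The next were Rpl3 at 0.064 and Rpl27a at 0.073.

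Negative slopes for the plus maze were small. Rpl5 came first, at -0.025 ± 0.046 (SE, n = 9; limma adjusted p = 0.999). Its values were 11.34 in rat 5, a median of 11.47 and 11.74 in rat 9. Pearson r was -0.206 (exact permutation p = 0.610) and rho was -0.291 (exact permutation p = 0.444). Without rats 2 and 6 r was -0.400 (exact permutation p = 0.373), and without rats 8 and 9 it was 0.274 (exact permutation p = 0.550). Rpl37a had -0.014 and Rpl39 -0.0070.

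Sugar feeding lay between 0.8 in rat 6 and 4.7 in rat 4. For sugar feeding, 2 of 39 members had an unadjusted p under 0.05, both with negative slopes, against 1.4% of all probe sets in either direction, 0.767% with a positive and 0.63% with a negative slope. Slopes were negative for 35 members and positive for 4, with a median of -0.026 against -0.0030 over all probe sets. Positive slopes were 10.3% for the members, 46.8% for all probe sets and 42.7% for the other high-level probe sets. All 12 small-subunit members had a negative slope. Without rat 4, which fed most, 23 slopes were positive and 16 negative, with a median of 0.0079. The count was then 2, against 14.0% of all probe sets. The count was 0 without rat 1, against 1.38% of all probe sets, and 0 without rat 2, against 1.08%. It was 1 without rat 3, against 1.54%, 1 without rat 6, against 1.28%, 1 without rat 7, against 1.09%, and 1 without rat 8, against 1.76%. Without rats 8 and 9 it was 3, against 2.75%, and the median slope was -0.049.

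Rps24, a small-subunit protein mutated in some people with Diamond-Blackfan anaemia, had values of 11.49 in rat 4, a median of 11.70 and 11.81 in rat 3. Rat 4 was lowest and the others lay between 11.63 and 11.81. The slope for sugar feeding was -0.077 ± 0.032 (SE, n = 9; limma adjusted p = 1.00). Pearson r was -0.815 (exact permutation p = 0.0134) and rho was -0.683 (exact permutation p = 0.0503). Without rats 4 and 8 r was -0.423 (exact permutation p = 0.342), and without rats 8 and 9 it was -0.855 (exact permutation p = 0.0325). Rpl13a had a slope of -0.14 ± 0.061 (SE, n = 9; limma adjusted p = 1.00). Its Pearson r of -0.652 (exact permutation p = 0.0585) was also -0.652 (exact permutation p = 0.110) without rats 4 and 8, and it was -0.814 (exact permutation p = 0.0153) without rats 8 and 9. Its rho was -0.733 (exact permutation p = 0.0311). Its slope was -0.31 without rat 4. Rplp0 followed with -0.12.

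The positive slopes for sugar feeding were led by Rpl7a, at 0.049 ± 0.054 (SE, n = 9; limma adjusted p = 1.00). Its values were 11.56 in rat 7, a median of 11.76 and 12.12 in rat 8. Pearson r was 0.323 (exact permutation p = 0.356) and rho was 0.117 (exact permutation p = 0.766). Without rats 4 and 8 r was -0.166 (exact permutation p = 0.714), and without rats 8 and 9 it was 0.0402 (exact permutation p = 0.926). Rpl23 had 0.011 and Rpl5 0.0028.

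**Figure D5:**
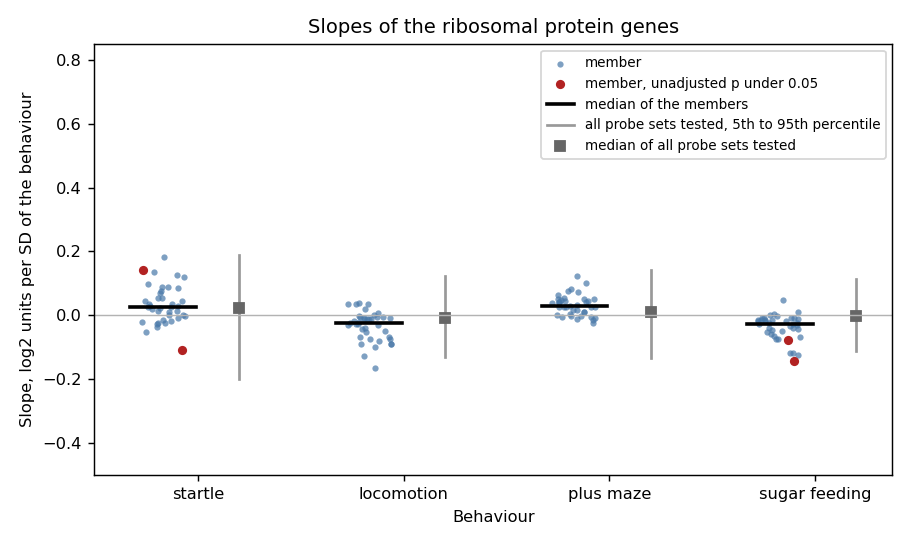
Limma slope in log2 units per SD of the behaviour (y axis) for each of 39 ribosomal protein genes (points; red where the unadjusted p was under 0.05) and the range from the 5th to the 95th percentile of all 9520 probe sets (grey line, square at the median), for 4 behaviours (x axis). The members' medians were 0.027 (startle), -0.025 (locomotion), 0.028 (plus maze) and -0.026 (sugar feeding), and most members lay inside the grey range.

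Genes that work with the ribosome were read from lists of the translation machinery. No gene of any of these lists passed the limma adjustment for any behaviour. Of the 7 elongation factors tested of 8 listed, which deliver tRNA and move the ribosome along the message, Eef1e1 had a positive and Eef1a2 a negative slope for startle at an unadjusted p under 0.05, with slopes of 0.27 and -0.22, or 28.6% of this short list against 13.2% of all probe sets. Eef1e1 is by function a scaffold of the tRNA synthetase complex. The median deviation of the elongation factors had an r of 0.775 with that of the ribosomal protein genes over the 9 rats and 0.789 over the 7. The initiation factor list was drawn by symbol, from Eif1 to Eif6. It thus also held regulators that are not initiation factors, such as the kinases Eif2ak1, Eif2ak2 and Eif2ak3 and the binding protein Eif4ebp2. Of the 41 genes tested from this list, 7 had a positive and 1 a negative slope for startle at an unadjusted p under 0.05. The positive ones included Eif3i at 0.15 and Eif3d at 0.14, subunits of the factor that loads the small subunit onto messages, and the negative one was Eif4a1, an RNA helicase, at -0.34. Against 13.2% of all probe sets, 19.5% of the initiation factor list and 5.13% of ribosomal protein genes had such a p for startle. The difference between the lists was not tested. For the plus maze, 4 genes of the initiation factor list had a positive and 2 a negative slope with such a p. That was 14.6% of the list against 2.99% of all probe sets. For locomotion and sugar feeding no gene of the list had such a p, against 1.96% and 1.4%.

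Of 25 ribosome biogenesis genes tested of 35 listed, 3 had an unadjusted p under 0.05 for startle, or 12.0% against 13.2% of all probe sets, a share near the background. These were, by the rule for naming genes, Polr1d, Nop16 and Ubtf. Polr1d, a subunit of RNA polymerases I and III, had 0.31, Nop16 had 0.35 and Ubtf, which activates ribosomal RNA transcription, had -0.088. Imp3, of the small-subunit processome, had a slope of 0.26 for the plus maze, as the 1 gene of this list with such a p there, or 4.0% against 2.99%. Of 16 mTORC1 pathway genes tested of 23 listed, Tsc1, an inhibitor of the pathway, had a slope of 0.14 for startle, and it was the gene of that list with an unadjusted p under 0.05 there, or 6.25% against 13.2% of all probe sets. The 70 mitochondrial ribosomal protein genes tested had a median pairwise r of 0.343, and of 0.153 without rats 8 and 9, whereas that of the cytosolic members was higher without these rats. Their median deviation lay between -0.20 in rat 9 and 0.11 in rat 5. Its r with that of the cytosolic genes was -0.0520 over 9 rats and -0.248 over 7. The same r was 0.265 and 0.549 for the initiation factor list and -0.255 and -0.427 for ribosome biogenesis genes. It was 0.466 and 0.503 for mTORC1 pathway genes. Rack1, the 1 gene tested of 4 listed as ribosomal proteins with other names, had -0.0294 and 0.358.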

How the data were processed

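The log2 values deposited by the authors, 1 per probe set and rat, come from GCRMA run under R 2.6.2, as the submitters' processing notes record. GCRMA removes background according to probe sequence and normalizes the arrays together. Its settings are not stated among the sources used here. No further normalization was applied. Scanner files were not analysed here. Genes were named from the annotation of the array platform, which gave 12783 probe sets 1 symbol, 312 several and 2771 no listed gene. A suffix l was read as one that follows the gene's number.

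The 57 control probe sets and then the lowest 40% by mean (below 3.22) were left out. Slopes per SD of each behaviour over the 9 rats were fitted with limma 3.58.1 (lmFit and eBayes, two-sided, 7 residual degrees of freedom) in R 4.3.3, with Benjamini-Hochberg adjustment over 9520 probe sets, after the step was tested on simulated data. Exact permutation tests, two-sided, used all 362880 pairings of 9 rats or 5040 of 7, in Python 3.11.15 (scipy 1.17.1, numpy 2.4.6, pandas 2.3.3). With 156 member relations tested, the limma adjusted p is the one corrected for multiple tests. Figures used matplotlib 3.10.9.

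Named members were, per behaviour, the 3 of smallest limma p in each direction, the 5 with the largest and the 5 with the smallest SD, the 5 with the most positive and the 5 with the most negative difference in rats 8 and 9, and Rplp0, Rpsa, Rpl13a and Rpl19. Members named for their r with other members, and pairs, were chosen after their values were seen. The members and lists were chosen with earlier results of these data known. Alternatives were other filters, renewed quantile normalization, ranks, array weights, robust fits, other memberships, covariates and leaving out rats. The spread is that between animals, with 1 array each, and the number of arrays limits the precision. Levels of different probe sets are not read as amounts of message of 1 gene against another. They served for the filter, the choice of 1 probe set per gene, the group with a mean of at least 10 and to call a signal weak.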

Additional observations from a re-analysis of the deposited data

Results flagged for a closer look

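In each of the 39 members the highest and the lowest rat were compared with the rest, by the gap to the nearest rat as a share of the gene's whole range. In 5 members that gap was larger than Dixon's critical value for 9 samples, and chance alone gives such a flag in about 1 in 20 groups. The share of all probe sets with such a gap was not computed, so the flags cannot be called particular to the members. Of all probe sets tested, 19.9% had their highest value in rat 3 and 11.9% in rat 8. The gap was 0.534 of the range for Rpl24, 0.510 for Rpl35, a protein at the exit of the peptide tunnel, and 0.647 for Rpl39, each with the highest value in rat 3. It was 0.515 for Rpl7a and 0.522 for Rps16, each with the highest value in rat 8. Rpl24 had 11.44 in rat 3 and at most 11.08 in the other rats, and Rpl35 had 11.86 in rat 3 and at most 11.55 in the others. Rpl39 had 4.99 in rat 3 and a mean of 4.77, a level near the array medians. Rat 3 also had the highest startle and the lowest locomotion value, and rat 8 the lowest startle value.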

How the results depend on the processing

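Under all alternatives run, no member had a limma adjusted p under 0.05 for any behaviour. Of the values for the whole list, 254 were labelled as kept and 32 as moved. A count was kept within 1.5 times its main value, and a median within the standard error from leaving out each rat in turn. For the startle slope that error was 0.048, above the median slope of 0.027, so a change of sign could be labelled as kept. The counts past the adjusted threshold, which held no member throughout, are among the 254. Of the named slopes 425 kept their sign and 30 reversed. The cause of these changes was not tested. The count at an unadjusted p under 0.05 for startle was 2, and it was 4 with no filter (15.5% of all probe sets), 4 with renewed quantile normalization (13.8%), 5 without rats 8 and 9 (14.6%) and 1 with a term for them (9.66%). Leaving out each rat gave 0 to 7. For locomotion the count of 0 was 2 on ranks (2.32% of all probe sets), 1 with array weights (1.27%) and 1 with the median of other high-level probe sets as a covariate (2.88%), and leaving out each rat gave 0 to 3. For the plus maze the count of 0 was 10 with array weights (12.2% of all probe sets), 1 with a term for rats 8 and 9 (3.26%), 4 with the high-level covariate (3.87%) and 1 with several-symbol probe sets added (2.99%), and leaving out each rat gave 0 to 5. With that covariate the median slope was 0.064. For sugar feeding the count of 2 was 0 with renewed quantile normalization (1.23% of all probe sets), 1 with a filter on the lowest 70% (0.924%), on ranks (1.32%), with the mean of all probe sets (1.33%) or with the covariate (1.95%), and 5 with several-symbol probe sets added (1.4%). Leaving out each rat gave 0 to 3. The covariate and the added probe sets were chosen after seeing the data.

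Median slopes with each rat left out lay between -0.011 and 0.056 for startle, -0.036 and 0.00096 for locomotion, 0.017 and 0.048 for the plus maze, and -0.049 and 0.0079 for sugar feeding. The median SD lay between 0.12 and 0.14. The median pairwise r was 0.578 without rats 8 and 9 and lay between 0.358 and 0.487 with each rat left out. The count of 5 members beyond the range in rats 8 and 9, or 12.8% against 26.3% of all genes, was 5 after renewed quantile normalization and 6 with the mean of all probe sets. The share over all genes is not given for these alternatives, so their counts cannot be set against a background.

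None of the slopes that reversed had an unadjusted p under 0.05. Without rats 8 and 9 they were 0.030 for Rpl7a and 0.0067 for Rpl5 with startle, -0.0093 for Rps16 and -0.017 for Rpl7a with locomotion, 0.014 for Rpl5 with the plus maze, and -0.017 for Rpl23 and -0.016 for Rpl5 with sugar feeding. With a term for these rats they were 0.020 for Rpl5 with startle, 0.0061 for Rpl5 with the plus maze, and -0.0012 for Rpl23 and -0.025 for Rpl5 with sugar feeding. With array weights they were -0.013 for Rps16 with locomotion, 0.0087 for Rpl5, 0.014 for Rpl37a and 0.013 for Rpl39 with the plus maze, and -0.0087 for Rpl5 with sugar feeding. With the covariate they were 0.037 for Rpl5, 0.053 for Rpl37a and 0.012 for Rpl39 with the plus maze, and -0.016 for Rpl5 with sugar feeding. With each rat left out, the slope of Rpl7a lay between -0.089 and 0.024 with startle and between -0.015 and 0.14 with locomotion. That of Rps16 lay between -0.0098 and 0.078 with locomotion. With the plus maze, Rpl5 lay between -0.037 and 0.0088, Rpl37a between -0.029 and 0.0049 and Rpl39 between -0.021 and 0.023. With sugar feeding, Rpl23 lay between -0.017 and 0.10 and Rpl5 between -0.013 and 0.069. No paired analysis was possible because the rats form 1 group. With 9 arrays, small slopes are not detectable, and probe sets near background carry little signal.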

Other observations

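A further 28 probe sets carried several symbols that were all ribosomal protein genes or their copies, and 27 of them passed the filter. Their genes cannot be told apart, so none is named. Their median deviation was lowest in rat 4, at -0.13, as in the single-symbol members, and highest in rats 6 and 2, at 0.091 and 0.090. In rat 3 it was 0.0084, against 0.13 for the single-symbol members. Over the 9 rats the medians of these probe sets and of the members had an r of 0.709, and of 0.739 over the 7 rats other than 8 and 9. For sugar feeding 1 of the 27 slopes was positive, or 3.70%, against 46.8% of all probe sets. For the plus maze 26 were positive, or 96.3%, against 58.2%.

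Among members with a second probe set that passed the filter, Rpsa had an r of 0.752 and 0.357 between its main probe set and the others, and Rpl7 had 0.0279. The values given for Rpl7 are those of its brightest probe set.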
